A study of Mus musculus with 8 samples.

Results

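The interferon regulatory factors are a family of DNA-binding proteins, and the members examined were Irf1, Irf2, Irf3, Irf4, Irf5, Irf7, Irf8 and Irf9. Members were found as every probe set whose single gene symbol in the platform annotation is one of these 8 symbols. This gave 9 probe sets for 7 members, among 12422 probe sets for 8251 genes on the array, and Irf2 had no such probe set. A probe set was tested where its log2 value reached 5 on at least 2 of the 8 arrays. Of the 7 members measured, 5 passed this filter with 1 probe set each (Irf1, Irf9, Irf3, Irf5 and Irf7), and Irf8 and Irf4 did not. Irf7 passed only through the 2 Stat3 KO arrays of replicate 3, so it had to differ between arrays to be tested.

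The arrays measured total RNA from mouse embryonic fibroblasts, cells of the connective tissue taken from embryos, that had immortalised spontaneously in culture. Stat3 KO cells lack the transcription factor Stat3 and Stat3 WT cells carry it, and cells of each genotype were untreated or were given oncostatin M (OSM) at 20 ng/ml for 30 minutes. OSM is a cytokine related to interleukin 6, whose receptors contain gp130 and pass the signal on through JAK kinases and STAT proteins. There were 2 arrays in each of 4 groups, namely Stat3 KO with OSM, Stat3 KO untreated, Stat3 WT with OSM and Stat3 WT untreated, and all cells had the same serum-containing medium with antibiotics. The free text of the untreated samples also mentions OSM, so treatment was taken from the titles. The titles number the arrays of each group 02 and 03, here called replicate 2 and replicate 3, and do not say whether the number marks a line, a culture or a batch. No allele, clone or animal is named, and loss of Stat3 cannot be told apart from whatever else distinguishes the KO and WT cells. Separate cultures are not stated for the arrays of a group, and p-values then measure only the spread among arrays, which may be technical spread.

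Interferon regulatory factors bind DNA elements built from repeats of the letters GAAA through a conserved domain at their amino end. Irf3 and Irf7 wait in the cytoplasm until kinases switched on by viral nucleic acid phosphorylate them, and they then start transcription of the type I interferon genes. Secreted interferon acts through its receptor and JAK kinases to assemble ISGF3, the complex that contains Irf9 and turns on interferon-stimulated genes, Irf7 among them. Irf1 is itself induced by STAT dimers that bind a palindromic element in its promoter, and it drives antigen-presentation and guanylate-binding protein genes.

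The promoter of Irf1 is shown because Irf1 is the member whose values with OSM the text turns on, and that of Irf8 because it is the other measured member with the same element. The windows held 250 bases before and 50 bases from each start in RefSeq annotation of GRCm38.p6, with 11 windows for the 8 members. Capitals mark matches to TTCNNNGAA, the letters of a STAT-type element, which reads the same on both strands.
Irf1, chr11:53769884-53769972, plus strand: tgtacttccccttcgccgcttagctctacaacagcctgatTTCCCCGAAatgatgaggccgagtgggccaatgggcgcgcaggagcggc
Irf8, chr8:120736147-120736235, plus strand: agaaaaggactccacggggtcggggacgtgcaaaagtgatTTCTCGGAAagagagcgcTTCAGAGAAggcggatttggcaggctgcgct
The Irf1 match lies 90 to 82 bases before the start, and the Irf8 matches lie 171 to 163 and 153 to 145 bases before it. TTCNNNGAA was found in 8.298% of all 32851 windows of 300 bases. An IRF-type element, GAAA followed by any NN and GAAA again and searched on both strands, was found in 3.443% of them and in none of the windows of the 7 measured members. Neither motif was found in the windows of Irf3, Irf4, Irf5, Irf7 and Irf9. Motif matches are descriptions of letters, and binding was not measured on these arrays.

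Stat3 was lower in the Stat3 KO arrays than in the Stat3 WT arrays by both of its probe sets, as the arrays are labelled, but was not at the lower end of the scale throughout. Probe set 99099_at read 9.17 and 8.70 in Stat3 KO with OSM, against 11.94 and 11.82 in Stat3 WT with OSM (replicates 3 and 2). Untreated it read 7.81 and 8.08 in Stat3 KO, against 10.50 and 10.11 in Stat3 WT. Another Stat3 probe set, 99100_at, read 7.30 in Stat3 KO with OSM replicate 3 and 2.76 to 2.94 on the other KO arrays, against 9.80 to 12.57 in Stat3 WT, and where the probes lie relative to the deleted part is not given. The first principal component, with 56.0% of the variance, separated replicate 3 (32.46 to 51.46) from replicate 2 (-54.69 to -19.43), and Stat3 KO with OSM replicate 2 stood apart from the other replicate 2 arrays (-54.69 to -48.05). Arrays of the same number and different groups correlated at 0.932 to 0.977 across probe sets, and arrays of the same group at 0.869 to 0.926. Of 14 leukocyte markers on the array only Csf1r reached log2 5, on every array, and the median of the list was 2.20 to 2.70. Of 12 fibroblast markers 8 or 9 reached 5, with medians of 11.3 to 12.8 and with Vim, Thy1 and Fap under 5 on all arrays. In RNA of whole cultures, fewer cells making a transcript and less transcript per cell cannot be told apart.

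Irf1, a transcriptional activator of antigen-presentation and growth-control genes (probe set 102401_at, chromosome 11), was detected on all 8 arrays and was higher with OSM in Stat3 KO cells. In Stat3 KO it read 14.82 with OSM against 12.78 untreated in replicate 3, and 13.48 against 11.41 in replicate 2. In Stat3 WT it read 11.91 with OSM against 12.02 untreated in replicate 3, and 11.12 against 10.88 in replicate 2. Within each number the OSM difference in Stat3 KO was thus almost the same, 2.04 and 2.07, and the KO arrays with OSM lay above both untreated KO arrays, as for 14.4% of probe sets. In Stat3 WT it was -0.11 and 0.24, and the groups overlapped.

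Irf1 averaged 14.15 ± 0.95 in Stat3 KO with OSM and 12.10 ± 0.97 in Stat3 KO untreated (SD, n = 2 each). The log2 difference was 2.06 ± 0.71 (SE throughout for differences), or 4.16-fold. It averaged 11.51 ± 0.56 in Stat3 WT with OSM and 11.45 ± 0.81 in Stat3 WT untreated (SD, n = 2 each). The difference in Stat3 WT was 0.07 ± 0.71 with a 95% interval of -1.67 to 1.80, or -0.45 to 0.58 with the replicate block. Limma's adjusted p was 0.9999 for both, so neither difference passed, and with the replicate number as a block the adjusted p was 0.100 in Stat3 KO and 0.996 in Stat3 WT. The OSM response in Stat3 KO minus that in WT was 1.99 ± 1.01, or ± 0.29 with the block (limma's adjusted p = 0.99999 and 0.913). The difference of the responses therefore did not pass in either fit, although its unadjusted p with the block was 0.000653. Without Stat3 KO with OSM replicate 2, the array that stood apart, the blocked OSM difference in Stat3 KO was 2.18 (adjusted p = 0.274). These contrasts share arrays with one another.

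The genotype difference of Irf1 was also similar within the numbers. With OSM, Irf1 was higher in Stat3 KO than in Stat3 WT by 2.91 in replicate 3 and by 2.36 in replicate 2, and both KO arrays lay above both WT arrays, as for 11.2% of probe sets. Untreated, the values were 0.77 and 0.53, and the groups overlapped. With OSM the fitted difference was 2.64 ± 0.71 (limma's adjusted p = 0.9997), and averaged over treatment it was 1.64 ± 0.50 (adjusted p = 0.675), or 3.12-fold. With the replicate block both were called by limma, with standard errors of 0.21 and 0.15 and adjusted p of 0.0387 and 0.0315. In that fit 0.104% of all probe sets were called with OSM and 0.429% averaged over treatment. Neither call held when any 1 of the 8 arrays was left out of the blocked fit, where limma's adjusted p was 0.0945 to 0.280 with OSM and 0.0980 to 0.151 averaged, at differences of 2.39 to 2.89 and 1.52 to 1.77.

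Irf1 was higher in replicate 3 than in replicate 2 in all 4 groups, by 1.35 and 1.38 in Stat3 KO with OSM and untreated and by 0.79 and 1.14 in Stat3 WT with OSM and untreated. The fitted difference was 1.16 ± 0.15 with an adjusted p of 0.00535 in limma, and it stayed called without any 1 array, at 1.09 to 1.29. This comparison called 41.1% of all probe sets, and the median difference over them was 0.09. The genotype difference of Irf1 in replicate 3 minus that in replicate 2 was 0.39 ± 0.83 (adjusted p = 0.841).

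**Figure D1:**
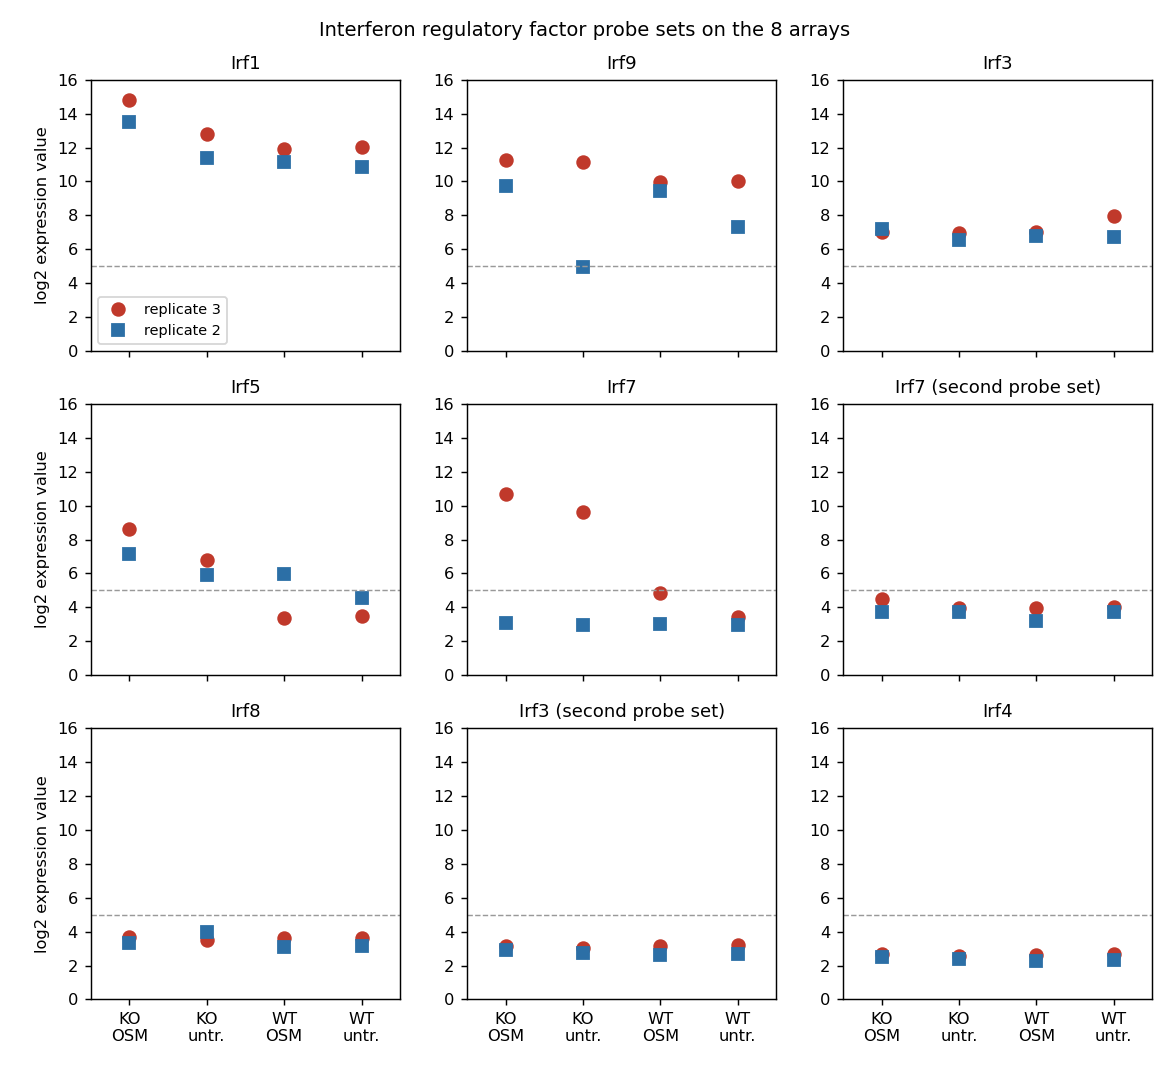
Log2 expression value (vertical axis) of each of the 9 probe sets in the 4 groups (horizontal axis), with replicate 3 as red circles and replicate 2 as blue squares; the dashed line marks log2 5. Irf1 lies highest in Stat3 KO with OSM in both numbers, Irf7 exceeds 5 in the Stat3 KO arrays of replicate 3 alone, and Irf9 lies lowest in Stat3 KO untreated replicate 2.

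Irf9, the DNA-binding subunit of ISGF3 (probe set 103634_at, chromosome 14), spanned 4.97 to 11.24 and had its higher value in replicate 3 in every group. In replicate 3 it read 11.24 and 11.17 in Stat3 KO with OSM and untreated, against 9.99 and 10.05 in Stat3 WT. In replicate 2 it read 9.73 and 4.97 in Stat3 KO with OSM and untreated, against 9.42 and 7.34 in Stat3 WT. In replicate 3 both KO arrays were above both WT arrays, whereas in replicate 2 the genotypes overlapped and Stat3 KO untreated was the lowest array.

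The OSM difference of Irf9 was near 0 in replicate 3 and above 0 in replicate 2, a contrast between the numbers that was not tested. In Stat3 KO it was 0.08 in replicate 3 and 4.76 in replicate 2, and in Stat3 WT it was -0.06 and 2.08. Fitted over both numbers it was 2.42 ± 2.01 in Stat3 KO and 1.01 ± 2.01 in Stat3 WT, and neither was called (limma's adjusted p = 0.9999 for both). With the replicate block the standard error was 1.28 for each, and neither was called. Without Stat3 KO untreated replicate 2 the difference in Stat3 KO was -0.68. The genotype difference averaged over treatment was 0.08 ± 1.42, with a mean of 1.18 in replicate 3 and -1.03 in replicate 2. Its 95% interval was -3.38 to 3.53, or -2.18 to 2.33 with the replicate block. Both leave a wide range of sizes that these fits could not resolve.

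Irf9 was higher in replicate 3 than in replicate 2 in all 4 groups, by 1.51 and 6.20 in Stat3 KO with OSM and untreated and by 0.58 and 2.72 in Stat3 WT with OSM and untreated. The fitted difference was 2.75 ± 0.91 and missed the threshold (limma's adjusted p = 0.0577), and it was called with no filter (adjusted p = 0.0424). It was 1.60 without either one of the untreated Stat3 KO arrays. The genotype difference in replicate 3 minus that in replicate 2 was 2.21 ± 1.58 (adjusted p = 0.498). It was 0.18 without Stat3 KO untreated replicate 2, and 4.24 without Stat3 KO with OSM replicate 2, an array far from the others of its number, where it was called (adjusted p = 0.0419).

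Irf7, which amplifies type I interferon production once interferon has induced it (probe set 104669_at, chromosome 7), was present on the replicate 3 arrays of Stat3 KO alone at the log2 5 level. In replicate 3 it read 10.71 and 9.63 in Stat3 KO with OSM and untreated, against 4.83 and 3.45 in Stat3 WT. In replicate 2 it read 3.05 and 2.94 in Stat3 KO with OSM and untreated, against 3.02 and 2.94 in Stat3 WT. Both KO arrays were above both WT arrays in replicate 3, and all 4 arrays lay within 0.11 of each other in replicate 2.

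The genotype difference of Irf7, Stat3 KO minus WT, was 5.88 with OSM and 6.18 untreated in replicate 3, and 0.03 and 0.00 in replicate 2. The difference between the numbers was 6.01 ± 0.54, with a 95% interval of 4.70 to 7.33 and an adjusted p of 0.00657 in limma, where 5.17% of all probe sets were called, and it is a description because Irf7 passed the filter only through the Stat3 KO arrays of replicate 3. Without Stat3 KO with OSM replicate 3 it was 5.73 and missed the threshold (adjusted p = 0.0602), and it was called without any other 1 array, at 5.53 to 6.49 (5.64 without Stat3 KO with OSM replicate 2). With values under 5 set to 5 it was 5.17 (adjusted p = 0.00882). Averaged over both numbers the genotype difference was 3.03 ± 2.10 and was not called (adjusted p = 0.9995, and 0.308 with the replicate block). Of 9 fibroblast markers tested in this comparison, Lum (-5.62) and Pdgfra (-1.996) were called lower and none higher. Lum passed the filter only through the 2 Stat3 WT arrays of replicate 3, so it too had to differ, and over all 12 markers on the array, with no filter, the median was -0.28 against -0.13 for all probe sets. Lum read 8.44 and 8.04 in Stat3 WT of replicate 3 with OSM and untreated, and 2.56 to 3.29 on the other 6 arrays; the part of these markers in the Irf7 result was not tested.

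Irf7 was higher in replicate 3 than in replicate 2 by 4.17 ± 1.30 (adjusted p = 0.0488 in limma), at a value close to the threshold, and since it passed the filter through replicate 3 arrays alone this is a description. The p stayed under the threshold without either untreated Stat3 WT array, at 5.39, and missed it without any other 1 array, at 3.00 to 4.95 (adjusted p up to 0.153). With values under 5 set to 5 it was 2.59 (adjusted p = 0.116). OSM differences of Irf7 were small beside their error, at 0.59 ± 2.97 in Stat3 KO and 0.73 ± 2.97 in Stat3 WT (adjusted p = 0.9999 for both). With the replicate block the standard error was 1.83 for each, and neither was called. Within the numbers the OSM differences were 1.08 and 0.11 in Stat3 KO and 1.38 and 0.08 in Stat3 WT, for replicates 3 and 2. Another Irf7 probe set, 162202_f_at, did not show the pattern: it read 3.21 to 4.50 on all 8 arrays, and its genotype difference in replicate 3 minus that in replicate 2 was -0.02.

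**Figure D2:**
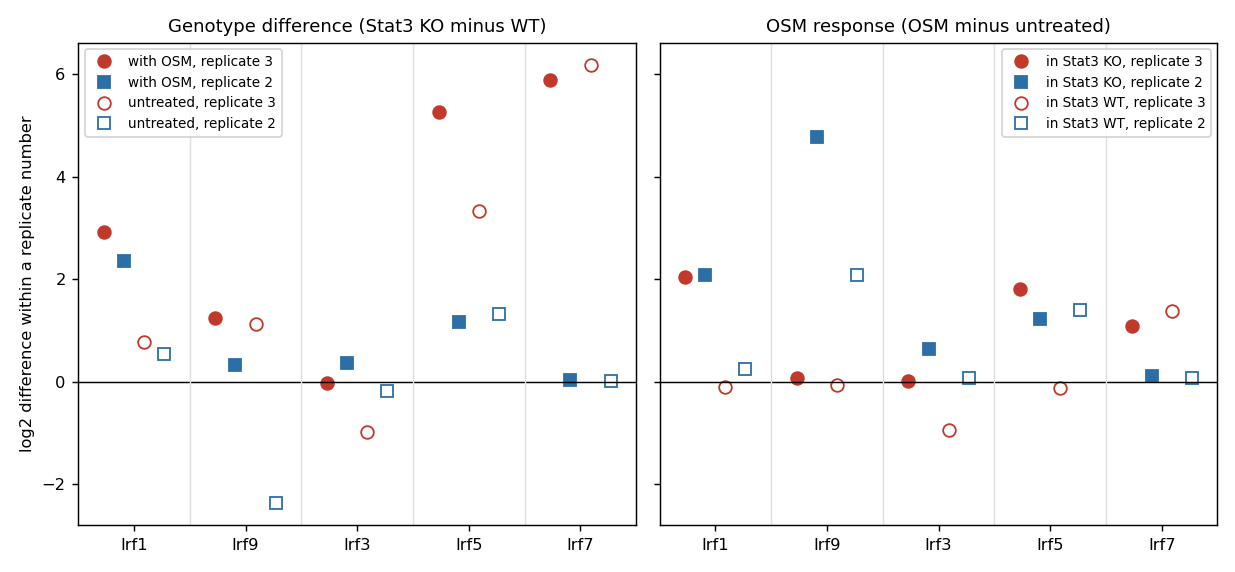
Log2 differences within a replicate number (vertical axis) for the 5 members tested (horizontal axis): Stat3 KO minus WT with OSM (filled) and untreated (open) on the left, and OSM minus untreated in Stat3 KO (filled) and Stat3 WT (open) on the right, with replicate 3 as circles and replicate 2 as squares. The Irf1 response to OSM in Stat3 KO is 2.04 and 2.07 in the numbers, whereas Irf7 differs between genotypes by 5.88 and 6.18 in replicate 3 and by 0.03 and 0.00 in replicate 2.

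Irf3, which is made in most cell types and is activated by phosphorylation (probe set 99103_at, chromosome 7), varied little. It read 6.996 and 7.17 in Stat3 KO with OSM, 6.98 and 6.54 in Stat3 KO untreated, 7.02 and 6.80 in Stat3 WT with OSM, and 7.96 and 6.73 in Stat3 WT untreated, for replicates 3 and 2. All values lay within 1.42 of each other, and Stat3 WT untreated replicate 3 was the highest. The genotype difference averaged over treatment was -0.21 ± 0.34 with a 95% interval of -1.04 to 0.63, and the OSM difference was 0.32 ± 0.49 in Stat3 KO and -0.43 ± 0.49 in Stat3 WT (limma's adjusted p = 0.9995 for the genotype and 0.9999 for OSM). Without Stat3 WT untreated replicate 3 the genotype difference was 0.10. A further probe set of Irf3, 162425_f_at, read 2.60 to 3.22 throughout.

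Irf5, which acts downstream of Toll-like receptors in immune cells (probe set 93425_at, chromosome 6), was higher in Stat3 KO than in Stat3 WT within both numbers. With OSM it read 8.62 and 7.13 in Stat3 KO, against 3.36 and 5.97 in Stat3 WT (replicates 3 and 2). Untreated it read 6.82 and 5.90 in Stat3 KO, against 3.49 and 4.58 in Stat3 WT. Both KO arrays lay above both WT arrays within each treatment, while over all 8 arrays the lowest KO array (5.90) was just below the highest WT array (5.97). The genotype difference was 5.26 with OSM and 3.33 untreated in replicate 3, and 1.16 and 1.32 in replicate 2.

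Averaged over treatment the genotype difference of Irf5 was 2.77 ± 0.71, or 6.81-fold, with a 95% interval of 1.04 to 4.49 and an adjusted p of 0.587 in limma (0.151 with the replicate block), so it did not pass. It was 2.11 to 3.42 without any 1 array, and 1.87 with values under 5 set to 5 (95% interval 0.81 to 2.94). Of the Stat3 WT arrays only that with OSM of replicate 2 reached 5, so the fold rests largely on low values. In replicate 3 minus replicate 2 the genotype difference was 3.05 ± 0.65 and fell just short of the threshold (limma's adjusted p = 0.0549). It was called after renewed quantile normalization (3.25, adjusted p = 0.0408), after median centring (3.14, adjusted p = 0.0338) and without Stat3 WT untreated replicate 3 (3.86, adjusted p = 0.0346). Leaving out Stat3 KO with OSM replicate 2 gave 3.16 (adjusted p = 0.0625). With values under 5 set to 5 it was 1.69 (adjusted p = 0.172). The OSM difference of Irf5 was 1.80 and 1.23 in Stat3 KO and -0.13 and 1.39 in Stat3 WT (replicates 3 and 2), with fitted values of 1.52 ± 1.001 and 0.63 ± 1.001 (adjusted p = 0.9999 for both).

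Irf8 and Irf4, which guide the development of myeloid and lymphoid cells (probe sets 98002_at on chromosome 8 and 92737_at on chromosome 13), stayed under log2 5 on all arrays. Irf8 read 3.09 to 3.96 and Irf4 read 2.29 to 2.70, with no array standing out. Such dim probe sets also differed between the numbers: with no filter, limma called Irf4 (0.26 ± 0.06, adjusted p = 0.0151) and the further probe sets of Irf7 (0.51, adjusted p = 0.0213) and Irf3 (0.41, adjusted p = 0.00825) higher in replicate 3, although all their values were under 5. Irf8 was not called there (0.21 ± 0.18, adjusted p = 0.337). In that fit most of all 12422 probe sets were called in either direction, 70.7% were above 0 and the median was 0.24. Nothing about the members is therefore read from these calls.

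Counted together, none of the 5 members tested was called by limma untreated between genotypes (0.0% of 6756 probe sets called, 0 members and 151 probe sets at an unadjusted p under 0.05) or with OSM between genotypes (0.0148%, 2 members and 243 probe sets). None was called for OSM in Stat3 KO (0.0%, 1 member and 138 probe sets), for OSM in Stat3 WT (0.0%, 0 members and 126 probe sets), for the difference of the responses (0.0%, 0 members and 29 probe sets) or for the genotype averaged over treatment (0.0148%, 2 members and 388 probe sets). With the replicate block, limma called Irf1 alone among them in both contrasts named above, and none for OSM in Stat3 KO (0.0296%). The calls of Irf1 stand against 0.0592% of probe sets called higher with OSM and 0.222% averaged. Between the numbers 2 of 5 were called, Irf1 and Irf7, both higher (23.4% of probe sets called higher), and for the genotype difference between the numbers 1 of 5, Irf7 (2.98% called higher). Irf7 passed the filter only through 2 Stat3 KO arrays of replicate 3 and was bound to differ in both comparisons, so both counts are descriptions and nothing is read from them against those shares.

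The order of the arrays was also counted, without a test. All 4 Stat3 KO arrays lay above all 4 Stat3 WT arrays for 0 of 5 members (1.78% of probe sets). With OSM the Stat3 KO arrays lay above the Stat3 WT arrays for 2 of 5 members, Irf1 and Irf5 (11.2% of probe sets), and untreated for 1 of 5, Irf5 (6.81%). In Stat3 KO the arrays with OSM lay above the untreated ones for 3 of 5 members, Irf1, Irf3 and Irf5 (14.4%), and in Stat3 WT for 0 of 5 (8.29%). Irf3 met this by a narrow margin, with a lowest KO value of 6.996 with OSM and a highest of 6.983 untreated. A value at least 1 log2 higher with OSM within both numbers was seen for 2 of 5 members in Stat3 KO, Irf1 and Irf5 (2.19% of probe sets), and for 0 of 5 in Stat3 WT (2.01%). In replicate 3 both KO arrays lay above both WT arrays for 4 of 5 members, Irf1, Irf5, Irf7 and Irf9 (23.2%). For Irf3 both KO arrays of replicate 3 lay below both WT arrays, by a narrow margin (highest KO value 6.996, lowest WT value 7.02). The share of probe sets in that order is not given, so nothing is read from it. In replicate 2 the KO arrays lay above the WT arrays for 1 of 5, Irf1 (19.8%). Higher values in replicate 3 in all 4 groups were seen for 3 of 5 members, Irf1, Irf7 and Irf9 (33.7%). Irf7 passed the filter only through the Stat3 KO arrays of replicate 3, so its place in these counts of replicate 3 is a description. The members were chosen with results known, and these shares were not tested against the background.

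**Figure D3:**
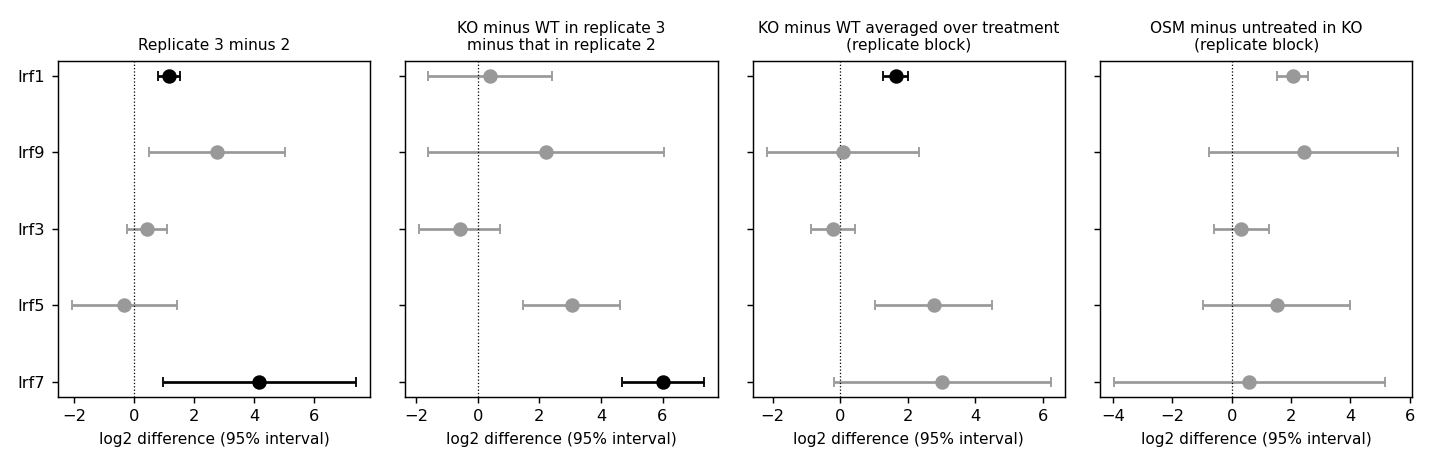
Fitted log2 differences of the 5 members tested with their 95% intervals (horizontal axis) for 4 contrasts, of which the 2 on the right are from the fit with the replicate block; black points passed an adjusted p of 0.05 and grey points did not. Irf1 passed between the numbers (1.16) and in the blocked genotype contrast (1.64), and Irf7, which had to differ to be tested, passed between the numbers (4.17) and for the genotype difference between the numbers (6.01).

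Genes that act before and after these factors were counted in the same fits, where 23.4% of all probe sets were called higher in replicate 3 and 2.98% for the genotype difference between the numbers. Of 11 interferon genes 9 were on the array and 3 tested, and none was called in any of the 8 contrasts; Ifnb1, the gene for interferon beta, read 3.87 to 4.48 on all arrays. Of 10 receptors, JAKs and STATs 7 were tested, and 3 were called higher in replicate 3, Jak1 (0.95 ± 0.12), Ifnar2 (1.58 ± 0.29), a chain of the type I interferon receptor, and Jak2 (0.87 ± 0.27), with limma's adjusted p of 0.00511, 0.0120 and 0.0489. Of 19 sensors, adaptors and kinases 7 were tested and 3 were called higher in replicate 3, Ifih1 (4.43 ± 0.53), a sensor of viral RNA, Tbk1 (1.51 ± 0.21), which phosphorylates Irf3, and Irak1 (1.22 ± 0.20). Zbp1, a sensor of nucleic acids in the Z conformation, was called for the genotype difference between the numbers (2.43 ± 0.42, limma's adjusted p = 0.0293). Its replicate 3 minus replicate 2 difference was 0.03 and 1.02 in Stat3 KO and -2.16 and -1.63 in Stat3 WT, with OSM and untreated. That call thus rests mostly on lower values in Stat3 WT of replicate 3. Of 10 partners and cofactors 4 were tested and Kat2b (1.58 ± 0.23) was called higher. Of 10 negative regulators 5 were tested and 2 were called higher, Trim21 (1.64 ± 0.25) and Ptpn2 (1.01 ± 0.29). None of these lists had a member called for OSM, and only Stat3 itself was called between genotypes, in the blocked fit.

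Genes that ISGF3 turns on had higher means in replicate 3 than in replicate 2, 15 of the 15 tested among 26 listed. Of these, 9 were called higher in replicate 3, against 23.4% of all probe sets. Mx1, Rsad2, Usp18 and Cmpk2 reached log2 5 in replicate 3 alone and so had to differ. Ifit3 and Mx2 reached it on only 1 array of replicate 2, so they too passed the filter only with replicate 3 arrays. Over the 16 genes of the list on the array, with no filter, 16 were above 0 and the median difference was 2.28, against 70.7% above 0 and a median of 0.24 for all 12422 probe sets. Ifit3 (7.98 ± 0.39), Ifit1 (7.56 ± 0.40), which bind foreign RNA, Usp18 (7.996 ± 0.70), which removes Isg15 from proteins, and Isg15 (3.36 ± 0.24), a ubiquitin-like modifier, had limma's adjusted p of 0.00255, 0.00255, 0.00316 and 0.00292. The genotype difference between the numbers was called higher for Ifi35 (1.73 ± 0.22) and Mx1 (5.15 ± 0.95), with 2.98% of probe sets called higher. With no filter its median over the 16 genes was 1.55, against -0.13 for all probe sets. Mx1, an antiviral GTPase, was like Irf7, Rsad2 and Cmpk2 above 5 on the 2 Stat3 KO arrays of replicate 3 alone, so its call is a description. It read 11.19 and 8.63 in Stat3 KO of replicate 3 with OSM and untreated, and 3.598 to 4.57 on the other 6 arrays.

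Genes linked to Irf1 had higher means in replicate 3 for 18 of the 19 tested among 28 listed. Of these, 13 were called higher in replicate 3, against 23.4% of all probe sets, and the median of the 19 differences was 1.75, against 0.09. Psmb9, Casp4 and Ido1 reached log2 5 on only 1 array of replicate 2, so they passed the filter only with replicate 3 arrays. Over the 25 genes of the list on the array, with no filter, 24 were above 0 and the median was 1.28. Gbp3 (3.17 ± 0.36) and Gbp2 (1.75 ± 0.21), guanylate-binding proteins, Tap1 (3.42 ± 0.44), a peptide transporter for antigen presentation, and Irgm1 (2.80 ± 0.37), an immunity-related GTPase, had limma's adjusted p of 0.00439, 0.00487, 0.00543 and 0.00572. The genotype difference between the numbers was called higher for 3 (H2-D1, 2.71 ± 0.29; H2-K1, 2.19 ± 0.27; Psme1, 1.55 ± 0.22) and lower for Vcam1 (-1.02 ± 0.21), where 2.98% of probe sets were called higher and 5.17% in either direction. H2-D1 and H2-K1 are class I genes with close paralogs, so their probe sets may read more than 1 gene. Both were higher in replicate 3 in each group. Psme1 was higher in replicate 3 in Stat3 KO (0.49 and 0.48) and lower in Stat3 WT (-1.19 and -0.95), with OSM and untreated. With the replicate block Psmb8, an immunoproteasome subunit, was called higher in Stat3 KO averaged over treatment (4.64 ± 0.54, adjusted p = 0.0471), with 0.222% of probe sets called higher in that fit, and its adjusted p without the block was 0.212.

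Within replicate 3, Stat3 KO minus WT averaged over treatment was above 0 for 15 of 15 ISGF3 targets (median 2.17) and for 18 of 19 genes linked to Irf1 (median 1.93). Within replicate 2 it was above 0 for 11 of 15 ISGF3 targets (median 0.14) and for 17 of 19 genes linked to Irf1 (median 1.35). Over all 6756 probe sets it was above 0 for 47.1% in replicate 3 (median -0.02) and for 46.8% in replicate 2 (median -0.04). The ISGF3 values of replicate 3 include Mx1, Rsad2 and Cmpk2, which had to differ. Beside these, Irf7 differed by 6.03 in replicate 3 and 0.02 in replicate 2, Irf9 by 1.18 and -1.03, and Irf1 by 1.84 and 1.45. The difference between the 2 lists was not tested. With OSM, the median response of the 15 ISGF3 targets was 1.20 and 0.14 in Stat3 KO and 0.15 and 0.42 in Stat3 WT (replicates 3 and 2). That of the genes linked to Irf1 was 0.79 and 0.81 in Stat3 KO and 0.68 and 0.62 in Stat3 WT (replicates 3 and 2), against medians over all probe sets of -0.06 to 0.06. The values of Irf1 itself were 2.04 and 2.07 in Stat3 KO and -0.11 and 0.24 in Stat3 WT.

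**Figure D4:**
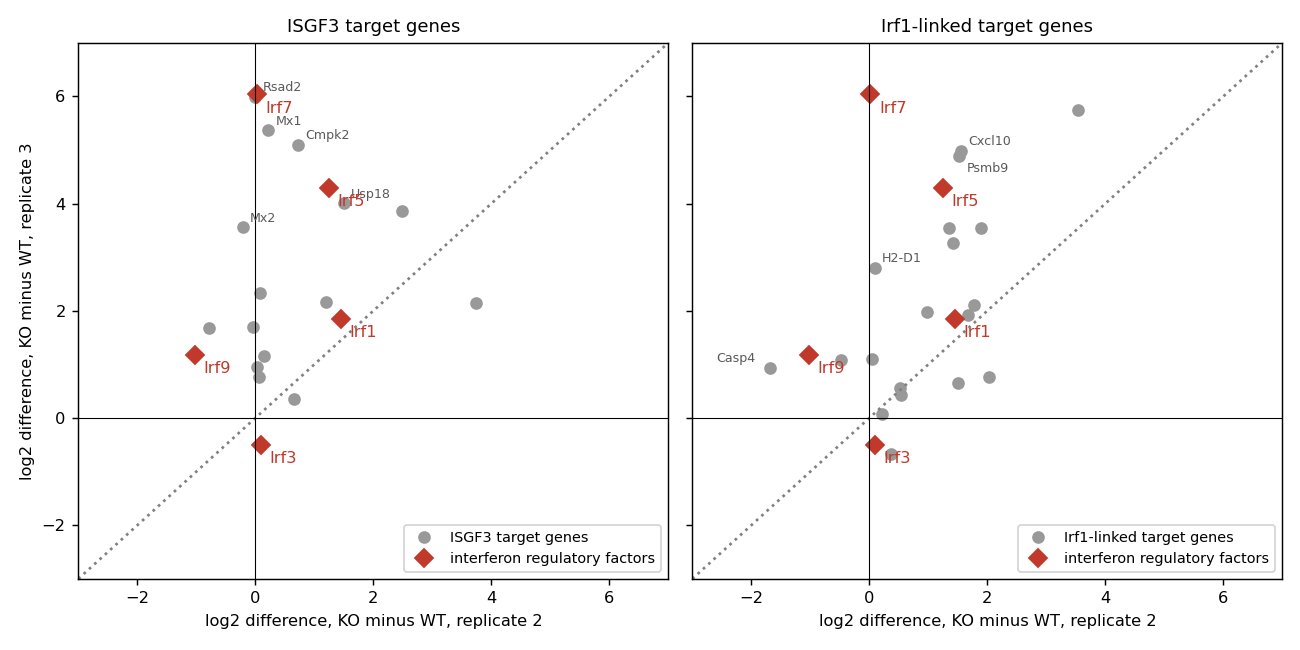
Log2 difference Stat3 KO minus WT averaged over treatment in replicate 2 (horizontal axis) and replicate 3 (vertical axis) for ISGF3 target genes (left) and genes linked to Irf1 (right) in grey, with the 5 members tested as red diamonds; on the dotted line the numbers give equal values, and genes that differ by over 2.5 between the numbers are named. Irf7 lies at 6.03 in replicate 3 and 0.02 in replicate 2, beside Rsad2 and Mx1. Irf7, Rsad2 and Mx1 passed the filter only through the Stat3 KO arrays of replicate 3, so all of them had to differ. Irf1 (1.84 and 1.45) lies near the dotted line.

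The genes most like each member across the 8 arrays were found by Pearson's r over 5194 genes, as a description in which arrays share the number effect. For Irf1 they were Ggct (0.983), Rgs16 (0.966) and Twist1 (0.956), and after the mean of each number was subtracted Ggct (0.979), Socs1 (0.978) and Fos (0.966). Socs1, an inhibitor of JAK kinases, read 11.40 and 8.31 in Stat3 KO with OSM, 4.10 and 1.14 in Stat3 KO untreated, 2.58 and 2.40 in Stat3 WT with OSM, and 1.49 and 1.13 in Stat3 WT untreated (replicates 3 and 2). For Irf9 they were Naa30 (0.993), Naa15 (0.986) and Zzz3 (0.982), and the same 3 after subtraction (0.988, 0.972 and 0.966). For Irf7 they were H2-Q4 (0.997), H2-D1 (0.995) and H2-Q5 (0.992), class I genes, and Sars (0.998), H2-Q5 (0.996) and H2-Q4 (0.994) after subtraction. H2-Q5 read 7.91 and 7.15 in Stat3 KO of replicate 3 with OSM and untreated, and under 5 on all other arrays. Irf7 and H2-Q5 thus passed the filter only through the same arrays, so their likeness was largely set by the filter. Probe sets of class I genes may also read more than 1 gene. For Irf3 they were Hs3st1 (0.949), Psenen (0.939) and Mterf2 (0.931), and Top2b (0.941), Zfp943 (0.932) and Sf3b6 (0.931) after subtraction. For Irf5 they were Eif2s3y (0.944), Fkbp5 (0.935) and Cltc (0.925), and Rlim (0.989), Lima1 (0.972) and Tor3a (0.966) after subtraction.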

How the data were processed

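Per the submitters' processing notes, the authors used affy and GCRMA to obtain the deposited log2 value of each probe set; their versions are not given here. GCRMA draws dim probe sets to low values, which can enlarge or shrink differences against them. Total RNA was labelled with biotin for Affymetrix arrays, per the labels' protocols. The number of arrays (8) limits the precision. The table held 12488 probe sets, and 66 controls were set aside. Probe sets with 1 gene symbol were named, and 396 with several and 1193 with none were not.

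Differences were tested two-sided with limma 3.58.1 in R 4.3.3 (lmFit, eBayes with trend) on 4 group means of 8 arrays, with 4 residual degrees of freedom. Replicate 3 minus replicate 2 was fitted with the replicate number added to the group means, with 3 residual degrees of freedom. Genotype by number was fitted with treatment as a term and 3 residual degrees of freedom. Probe sets at log2 5 or more on at least 2 arrays (6756) were kept, Benjamini-Hochberg adjustment ran over all of them, and adjusted p under 0.05 counts as called. Each gene is represented by its kept probe set with the highest mean. The replicate number pairs the arrays on the evidence of the data: replicate 3 minus 2 correlated at 0.589 to 0.911 between groups over probe sets. For the contrasts of genotype and OSM, fits with the number as a block were run as alternatives. Other settings were also run as alternatives, and scripts were tested on simulated data. Named were all members, Stat3 on every array, up to 4 passing genes per list and contrast, and the 3 genes most like each member. Genes outside that rule were named once their values had been seen. They were Ifnb1, Rsad2, Cmpk2, Mx2, Psmb9, Casp4 and Ido1, and the markers Csf1r, Vim, Thy1 and Fap. Socs1 was within the rule, and its array values were added after they had been seen. The members and lists were chosen with earlier results of these data known. Promoter sequences are from RefSeq, GRCm38.p6.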

Additional observations from a re-analysis of the deposited data

Results flagged for a closer look

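The genotype difference of Irf7, Stat3 KO minus WT, was larger in replicate 3 than in replicate 2 by 6.01 on the log2 scale, by the genotype by number term of the fit (limma's adjusted p = 0.00657). Irf7 was tested only because both Stat3 KO arrays of replicate 3 exceeded log2 5, so it was bound to differ, and without Stat3 KO with OSM replicate 3 the adjusted p was 0.0602. Irf5 was higher in replicate 3 than in replicate 2 in both Stat3 KO groups (1.49 with OSM and 0.92 untreated) and lower in both Stat3 WT groups (-2.61 and -1.09), and the term for this difference was 3.05 (limma's adjusted p = 0.0549), so the opposite directions were not called. Of the Stat3 WT arrays only that with OSM of replicate 2 reached log2 5, so the Stat3 WT side rests on low values. With values under 5 set to 5 the term was 1.69 (limma's adjusted p = 0.172).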

How the results depend on the processing

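Settings other than leaving out an array gave 346 values of members, of which 327 kept direction and call, 5 lost the call, 6 gained it, 7 reversed and 1 was 0; of 368 values with an array left out 326 kept both, 7 lost the call, 2 gained it and 33 reversed. The 5 losses were Irf7 between the numbers with eBayes without trend (adjusted p = 0.0524), robust eBayes (0.05003), quantile normalization (0.0640), median centring (0.0564) and values under 5 set to 5 (0.116). The cause of these changes was not tested. Medians of the gene lists over every gene on the array were an alternative chosen after seeing the data. Pairing by replicate block changed the calls of Irf1 with OSM and averaged over treatment (2.64 and 1.64, now called) and no other member's call. Probe sets called between genotypes with OSM (1) were 7 with the replicate block and 0 with eBayes without trend, robust eBayes, quantile normalization, median centring, values under 5 set to 5 and only the groups compared; averaged over treatment (1) they were 29 with the block and 3 with no filter; for OSM (0) they were 2 with the block and 1 with values under 5 set to 5 in Stat3 KO, and 1 with the block in Stat3 WT. Between the numbers (2775 of 6756) they were 7210 with no filter, where 12422 probe sets were tested. Without 1 array they were 0 to 1 with OSM and averaged, 1223 to 2599 between the numbers (1223 to 1699 without 1 array of the 3 groups other than Stat3 KO with OSM) and 24 to 823 for genotype by number (349 in full).

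Reversed values were, for Irf7, -0.0313 untreated, -0.28 for OSM in Stat3 WT, 0.55 for the difference of responses and -0.0179 for genotype by number with the other probe set, and 0.54 for the difference of responses with values under 5 set to 5, where OSM in Stat3 WT gave 0; for Irf3, 0.0425 averaged with the other probe set; and for Irf5, 0.36 between the numbers with values under 5 set to 5. Without 1 array, Irf1 ranged from -0.0407 to 1.34 untreated, -0.50 to 0.64 for OSM in Stat3 WT (-0.18 to 0.31 with the block) and -0.38 to 1.17 for genotype by number. Irf9 ranged from -3.73 to 2.47 untreated, -0.68 to 5.52 and -0.35 to 2.37 for OSM in Stat3 KO and WT, -1.69 to 4.51 for their difference and -1.47 to 1.63 averaged. Irf7 ranged from -0.25 to 6.44 untreated, -0.87 to 6.79 with OSM, -3.24 to 4.43 and -0.18 to 1.64 for OSM in Stat3 KO and WT and -3.97 to 3.70 for their difference. Irf3 ranged from -1.20 to 0.0307 untreated, -1.05 to 0.18 for OSM in Stat3 WT and -0.52 to 0.10 averaged, and Irf5 from -0.68 to 1.93 for OSM in Stat3 WT, -0.42 to 2.19 for the difference of responses and -0.93 to 0.44 between the numbers. Genotype contrasts of 2 arrays against 2 leave members with one low array, such as Irf9, without a resolved sign.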
